A study of Mus musculus with 4 samples.

Results

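AP-1 is a family of dimeric transcription factors built from Fos and Jun proteins, and 9 of its genes were followed in freshly isolated muscle stem cells: the Fos subunits Fos, Fosb, Fosl1 and Fosl2, the Jun subunits Jun, Junb and Jund, and the relatives Atf3 and Maff. They were chosen by gene symbol from the 55487 genes of the deposited tables, and all 9 were found and tested. The cells came from skeletal muscle of mice in which Rbfox2, an RNA-binding regulator of splicing, was deleted (Rbfox2 cKO, 2 libraries) and of Control mice (2 libraries). In the cKO mice a floxed Rbfox2 allele was recombined by Pax7CreERT2, a Cre that is active in Pax7-expressing cells only after tamoxifen, and a Rosa26 EYFP allele marked the recombined cells. The labels call the other group Control without listing its alleles, and the sources used here do not say whether Control mice received tamoxifen, nor the age or sex of the mice. All 4 libraries are of cells after isolation, so levels in cells before isolation are not analysed here.

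Fos proteins do not form stable dimers with themselves and pair with Jun proteins, whereas Jun proteins can also pair with each other. The dimers bind the sequence TGANTCA, and dimers of Jun with ATF proteins prefer TGACGTCA. Most of the genes belong to the immediate early genes, whose transcription starts within minutes of a growth or stress signal through MAP kinases and needs no new protein. Their mRNAs are short-lived, partly through AU-rich elements in the 3′ UTR. In muscle they are known to be induced in satellite cells by injury and by the digestion of the tissue that frees the cells.

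The sequences tied to the induction and decay of these mRNAs are shown first. Promoter windows from RefSeq (GRCm38.p6) were found for 8 of the 9 genes, all but Fosl1, in 10 windows because Maff has 3 starts. The windows shown are the 120 bases before the RefSeq start of Jun and Junb, the pair whose libraries moved most alike, and of Fos and Atf3. Capitals mark a TGACG match or one of the longer 8-base motifs named below. The Jun window is chr4:95052223-95052342, minus strand, the Junb window chr8:84978749-84978868, minus strand, the Fos window chr12:85473770-85473889, plus strand, and the Atf3 window chr1:191183334-191183453, minus strand.
Jun: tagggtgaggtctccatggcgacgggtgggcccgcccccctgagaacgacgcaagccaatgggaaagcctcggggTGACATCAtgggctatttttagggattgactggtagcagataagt
Junb: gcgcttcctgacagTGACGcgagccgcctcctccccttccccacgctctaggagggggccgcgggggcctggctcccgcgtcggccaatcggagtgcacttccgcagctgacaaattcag
Fos: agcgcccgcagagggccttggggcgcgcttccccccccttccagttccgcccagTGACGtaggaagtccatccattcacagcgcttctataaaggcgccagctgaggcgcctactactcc
Atf3: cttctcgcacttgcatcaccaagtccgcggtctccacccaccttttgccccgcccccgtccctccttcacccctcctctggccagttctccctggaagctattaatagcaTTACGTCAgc

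The motifs were searched on both strands in the 250 bases before each start. TGACG, the core of the CRE that CREB and ATF proteins bind, was in 6 of the 10 windows of these genes and in 17.8% of all 32851 promoter windows. It can overlap the longer TGACGTCA and TTACGTCA. The Fos match shown begins 66 bases before the start, and a second lies at 129 bases. The Fosb match lies at 60 bases and the Junb match at 106 bases. The full CRE, TGACGTCA, was found 29 bases before 1 of the Maff starts and is in 1.55% of all windows. The variant TGACATCA, which begins 45 bases before the Jun start and 45 bases before another Maff start, is in 2.93%. Jun also holds TTACCTCA at 164 bases, a motif in 0.728% of windows, and Atf3 holds TTACGTCA at 10 bases, a motif in 0.447%. The AP-1 site TGANTCA was in 0 of the 10 windows against 6.75% of all windows, and the CArG box, which SRF binds, in 0 against 1.47%. Sites farther upstream than 250 bases were not searched. A 0 here therefore does not show that a promoter, such as that of Fos, lacks either site. The GC box GGGCGG was in 7 of the 10 windows against 32.7%. These matches describe letters in a short window and are not evidence of binding.

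The 3′ UTR of the GENCODE M21 transcript with the longest coding sequence of each gene was read for the AU-rich pentamer ATTTA, which was present in 9 of 9 genes, against 61.5% of 20674 protein-coding genes and 78.5% of 8536 genes with a 3′ UTR of similar length. Counts per 3′ UTR were 8 in Fosl2, 4 in Fos, Jun and Maff, 3 in Atf3, 2 in Junb, and 1 in Fosb, Fosl1 and Jund. The stricter nonamer TTATTTATT was in Fos, Fosl2 and Maff, 3 of 9 genes, against 6.91% of all genes. The 30-base windows below show, with ATTTA in capitals, the element in Fos (chr12:85477092-85477121, plus strand, GRCm38), where the pentamers overlap, in Fosl2 (chr5:32156860-32156889, plus strand), and in Fosl1 (chr19:5455854-5455883, plus strand), which holds a single one.
Fos: cgtttttattgtgttttcaATTTATTTAtt
Fosl2: aagaaattgacATTTAttttattATTTAtt
Fosl1: agcctccaccgcaagggcagctgctATTTA

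Rbfox proteins bind TGCATG in RNA. This hexamer was in the 3′ UTR of 3 of the 9 genes, with 4 copies in Fosl2, 2 in Jun and 1 in Fosb, against 1 or more copies in 29.5% of all genes. Fosl2 has the longest 3′ UTR of the family, 4653 bases, and among 3570 genes with a 3′ UTR of similar length, 70.5% held at least 1 copy and 7.56% at least 4. The 4 Fosl2 copies, in capitals, begin at bases 1425, 1626, 2334 and 3481 of the 3′ UTR. Their 20-base windows are chr5:32154607-32154626, chr5:32154808-32154827, chr5:32155516-32155535 and chr5:32156663-32156682, plus strand, GRCm38. Binding was not measured in these libraries.
Fosl2 copy 1: tccccacTGCATGttgacac
Fosl2 copy 2: aaacactTGCATGcagaagc
Fosl2 copy 3: tcactcaTGCATGcctgcac
Fosl2 copy 4: atgtgtgTGCATGcttgtgt

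The libraries held 68884091 and 101997422 estimated counts in cKO 1 and cKO 2, against 84869830 and 85499716 in Control 1 and Control 2. Rbfox2 itself was at 40.04 and 15.17 CPM (counts scaled by library total and TMM factor) in the cKO libraries, against 131.3 and 56.0 CPM in the Control libraries (log2 fold change -1.76, edgeR quasi-likelihood test, Benjamini-Hochberg adjusted p = 0.000252). The cKO 1 library stood apart, with a median over all genes of 0.771 TPM, a length-corrected transcript abundance with an equal total per library, against 0.312 TPM in cKO 2, 0.392 in Control 1 and 0.437 in Control 2. Its TMM factor, which edgeR estimates so that most genes match between libraries, was 1.27, against 0.876 in cKO 2, 0.935 in Control 1 and 0.965 in Control 2. A gene can therefore rank high in cKO 1 in TPM and low in TMM-scaled CPM, and both scales are given where they differ. The 10 satellite cell markers summed to 16784 to 17414 TPM in cKO and 16692 to 17326 TPM in Control libraries, most of it Sdc4, and all 10 were detected in every library. Pax7 was at 15.9 and 13.5 TPM in cKO and 7.903 and 6.995 TPM in Control cells. This difference did not pass the threshold (log2 fold change 0.84, edgeR adjusted p = 0.556). Of the 10 markers, 0 passed it in either direction, and their median log2 fold change was -0.08. Of the other cell types, 6 erythroid markers summed to 1471 to 1799 TPM in cKO and 337 to 763 TPM in Control libraries (5 of 6 called higher). The 8 macrophage markers summed to 44.0 to 54.9 TPM in cKO and 30.1 to 32.5 TPM in Control libraries, most of it Lyz2 and Cd68. In CPM the groups overlapped for Cd68, Adgre1 and Ptprc, and Itgam was lower in cKO (log2 fold change -1.96). The 6 markers of fibro-adipogenic progenitors summed to 163 to 236 TPM in cKO and 140 to 153 TPM in Control libraries, most of it Dcn. In CPM the groups overlapped for Ly6a, Col15a1, Pi16 and Dpp4. The 6 endothelial markers summed to 129 to 156 TPM in cKO and 116 to 126 TPM in Control libraries. The 5 neutrophil markers summed to 6.77 to 22.6 TPM in cKO and 7.07 to 19.99 TPM in Control libraries. No marker of these 4 lists was called, Adgre1, Ly6g and Csf3r stayed below 1 TPM in every library, and no marker was at 0 TPM. In such bulk libraries, fewer cells of a type and less RNA per cell cannot be told apart.

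After isolation the AP-1 genes were among the most abundant transcripts of these cells. In TPM, which is corrected for transcript length and so allows genes to be compared, the order by mean level over the 4 libraries was Junb, Fos, Fosl1, Fosb, Jun, Atf3, Fosl2, Maff and Jund. Junb ranked 108th and Fos 135th of all 55487 genes, Fosl1 266th, Fosb 296th, Jun 405th and Atf3 579th. Fosl2, Maff and Jund ranked 2476th, 3240th and 3859th. Among genes with a mean level of at least 1 TPM, Junb stood at percentile 99.4, Atf3 at 96.6 and Jund at 77.6. Of the 8 neighbouring pairs in the order, the higher gene exceeded the lower one in every library only for Fos above Fosl1 and for Atf3 above Fosl2. In the other 6 pairs the ranges over the libraries overlapped and the higher gene led in 3 of 4 libraries. The family fell into 6 genes at 227.7 TPM or more in every library and 3 genes at 68.7 TPM or less in every library.

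**Figure D1:**
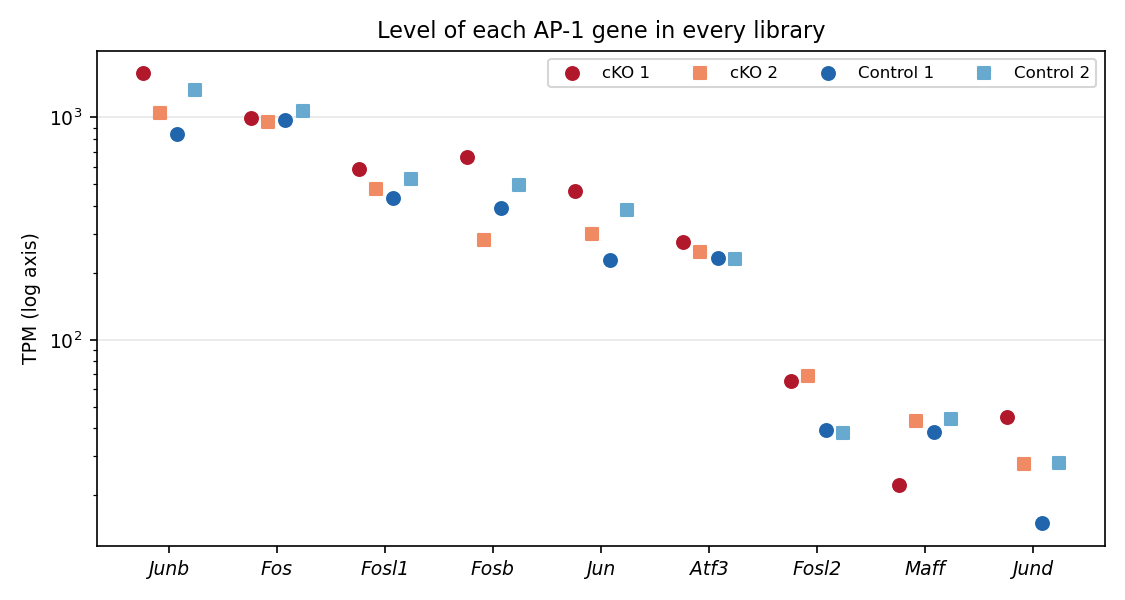
Level of each AP-1 gene in TPM (log axis) in the 4 libraries, with genes in order of mean level, cKO libraries in red and orange left of Control libraries in dark and light blue. The gap between Atf3, whose lowest library is at 229.7 TPM, and Fosl2, whose highest is at 68.7 TPM, separates 6 high from 3 low genes.

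Most of the high genes also ranked high in their wider class. Beside 27 other bZIP factors, Junb and Fos ranked 1st and 2nd of 36 by mean TPM, Fosl1 4th, Fosb 5th, Jun 7th and Atf3 9th, while Fosl2, Maff and Jund ranked 16th, 20th and 22nd. Atf4, the stress-response factor, at 3rd with a mean of 563 TPM, Mafk at 6th with 381 TPM and Nfe2l2 at 8th with 286 TPM stood between them. The 9 genes held 68.9% and 63.5% of the summed TPM of these 36 genes in the cKO libraries, against 60.6% and 67.1% in the Control libraries. The 36 are not all bZIP genes. Cebpd, for example, is left out, at 408.7 and 194.8 TPM in the cKO libraries, against 36.9 and 77.0 TPM in the Control libraries. The groups overlapped in this share. Among 57 immediate early genes, Junb ranked 7th and Fos 10th, behind Ccn2, Ccn1, Id3, Nfkbia, Egr1 and Myc, with Dusp1 and Ppp1r15a between them, and Fosl2, Maff and Jund ranked 41st, 43rd and 44th.

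Fos, the founding member and a short-lived activator, was at 990.4 and 958.4 TPM in the cKO libraries, against 973.4 and 1068 TPM in the Control libraries. Its levels lay within a narrow band in TPM, and the groups overlapped. In TMM-scaled CPM it stood at 909.8 and 1281 in the cKO libraries, against 1213 and 1314 in the Control libraries, with cKO 1 the lowest of the 4. The log2 fold change was -0.21 (SE 0.39, 95% interval -0.96 to 0.55, edgeR adjusted p = 1.00). With cKO 2 left out it was -0.54 and passed the threshold (adjusted p = 0.0327), and without cKO 1 it was 0.03, so its direction rests on cKO 1.

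Fosb, which also makes a truncated protein through alternative splicing that gene totals do not separate, was at 662.8 and 280.4 TPM in the cKO libraries, against 390.9 and 494.9 TPM in the Control libraries. In TPM the cKO libraries held both the highest and the lowest level. In TMM-scaled CPM it stood at 996.2 and 626.7 in the cKO libraries, against 817.8 and 1011 in the Control libraries, where Control 2 was the highest and the groups again overlapped. It averaged 811 ± 261 in cKO and 914 ± 137 CPM in Control (SD, n = 2 each), a log2 fold change of -0.17 (SE 0.38, 95% interval -0.92 to 0.58, edgeR adjusted p = 1.00). Without cKO 2 the value was 0.05, and without cKO 1 it was -0.53.

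Fosl1 encodes a Fos relative without a strong activation domain, which rises later than Fos after a stimulus. It was at 585.5 and 475.7 TPM in the cKO libraries, against 433.4 and 530.8 TPM in the Control libraries, and the groups overlapped. In CPM it varied least of the 9 genes, at 467.5 and 556.5 in the cKO libraries, against 472.5 and 573.1 in the Control libraries. The log2 fold change was -0.03 (SE 0.37, 95% interval -0.76 to 0.70, edgeR adjusted p = 1.00), and it was 0.10 both without cKO 1 and without Control 2. Fosl1 overlaps Ccdc85b on the opposite strand, which shares 52.6% of its 50-base words, and the strand setting of the counting is not given in the sources used here. Ccdc85b was at 275.7 and 347.8 CPM in the cKO libraries, against 304.7 and 368.6 CPM in the Control libraries, and with both genes summed the log2 fold change was -0.06.

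Fosl2, a Fos relative that is less tied to acute stimulation, was the Fos subunit in which the groups were furthest apart. It was at 65.0 and 68.7 TPM in the cKO libraries, against 39.4 and 38.2 TPM in the Control libraries. The cKO libraries were both higher than either Control library, and each group was tight in TPM. In TMM-scaled CPM it stood at 167.6 and 266.1 in the cKO libraries, against 141.7 and 134.1 in the Control libraries, again without overlap but with the cKO libraries far apart. The log2 fold change was 0.65 (SE 0.35, 95% interval -0.04 to 1.35), with an unadjusted p = 0.0659 and an adjusted p = 1.00 in edgeR. On log2(TPM + 1) limma gave 0.77 (SE 0.13, adjusted p = 0.0572), where the median of all genes fitted was 0.13. The gene passed the threshold with library totals alone (0.76, adjusted p = 0.00875), a scaling under which the median of all genes was also higher, at 0.25. It passed without cKO 1 (0.96, adjusted p = 0.000122), was at 0.21 without cKO 2, and was positive under all 11 alternatives. The erythroid, macrophage, endothelial and fibro-adipogenic marker sums above were also higher in both cKO libraries in TPM. In TMM-scaled CPM the endothelial sum overlapped between the groups, with Tek at 67.1 and 87.7 in the cKO libraries, against 98.3 and 71.1 in the Control libraries. The part of these cell types in the Fosl2 difference was not tested.

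By transcript number the Fos subunits were dominated by Fos, Fosl1 and Fosb. Fos made up 43.0% and 53.7% of the summed Fos subunit TPM in the cKO libraries, against 53.0% and 50.1% in the Control libraries. Fosb made up 28.8% and 15.7% in the cKO libraries, against 21.3% and 23.2% in the Control libraries, the most variable share of the 4 within a group. Fosl1 held a similar share in every library, at 25.4% and 26.7% in cKO and 23.6% and 24.9% in Control. Fosl2 made up 2.82% and 3.85% in the cKO libraries, against 2.15% and 1.79% in the Control libraries. The groups did not overlap in this share or in that of Fosl1. With 2 libraries per group, such separation is frequent. In CPM it was found for 18.0% of all genes tested with cKO higher, and for 13.3% with cKO lower. The rate for shares was not counted. A share within a library does not depend on the scaling between libraries.

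**Figure D2:**
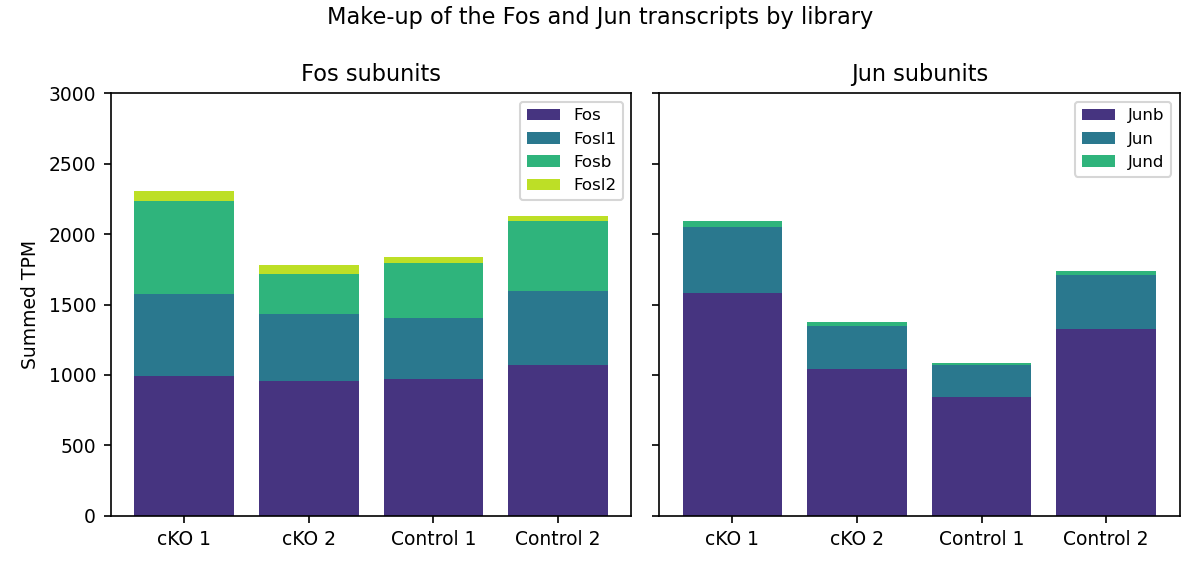
Stacked bars of the summed TPM of the Fos subunits (left panel) and Jun subunits (right panel) in each library, cKO libraries left of Control libraries. The Fos sum is 2304 and 1783 TPM in cKO 1 and 2 and 1837 and 2132 TPM in Control 1 and 2, and Junb forms the largest part of every Jun bar.

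Among the Jun subunits, Jun encodes the strongest activator and the partner that JNK kinases phosphorylate. It was at 468.7 and 300.5 TPM in the cKO libraries, against 227.7 and 383.4 TPM in the Control libraries. The groups overlapped, and Control 1 was the lowest library. In CPM it averaged 636 ± 30.9 in cKO and 576 ± 202 in Control (SD, n = 2 each), a log2 fold change of 0.14 (SE 0.38, 95% interval -0.59 to 0.88, edgeR adjusted p = 1.00). Without Control 1 the value was -0.19 and without Control 2 it was 0.54. Jun shares 5.83% of its 50-base words with its antisense gene Junos, which stood at 1.19 and 1.89 CPM in the cKO libraries, against 0.882 and 0.582 CPM in the Control libraries.

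Junb, a Jun subunit that activates more weakly and opposes Jun at some targets, was the most abundant gene of the family, at 1581 and 1046 TPM in the cKO libraries, against 842.3 and 1329.7 TPM in the Control libraries. Again Control 1 was the lowest library and the groups overlapped. In CPM it averaged 1235 ± 32.3 in cKO and 1161 ± 357 in Control (SD, n = 2 each), a log2 fold change of 0.09 (SE 0.39, 95% interval -0.67 to 0.85, edgeR adjusted p = 1.00). Without Control 1 the value was -0.21 and without Control 2 it was 0.42. Junb shares 5.76% of its 50-base words with its neighbour Prdx2.

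Jund, the Jun subunit that other cells express at rest and that responds least to stimulation, was the lowest of the 9 genes. It was at 44.9 and 27.6 TPM in the cKO libraries, against 15.0 and 28.0 TPM in the Control libraries, where cKO 2 and Control 2 were nearly equal and the groups overlapped. In TMM-scaled CPM it stood at 33.0 and 29.5 in the cKO libraries, against 14.9 and 27.5 in the Control libraries, and here the groups did not overlap. The log2 fold change was 0.56 (SE 0.33, 95% interval -0.08 to 1.20), with an unadjusted p = 0.0849 and an adjusted p = 1.00 in edgeR. The value rested on Control 1, since it was 0.17 without that library and 1.05 without Control 2. The marker sums of other cell types named beside Fosl2 moved with this difference too, the endothelial sum in TPM only, and their part in it was not tested. The level of Jund is uncertain, as is that of Fosl1, which shares 52.6% of its 50-base words with Ccdc85b. For Jund, the antisense gene Gm11175, listed at 0 in all libraries, shares 48.3% of the 50-base words, and the GENCODE model of Jund begins downstream of the RefSeq start.

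The summed Jun subunit level was 2094 and 1374 TPM in the cKO libraries, against 1085 and 1741 TPM in the Control libraries. Junb made up 75.5% and 76.1% of it in the cKO libraries, against 77.6% and 76.4% in the Control libraries, slightly less in both cKO libraries. Jund made up 2.15% and 2.01% in the cKO libraries, against 1.38% and 1.61% in the Control libraries. The groups did not overlap in either share, and the Jund share was higher in both cKO libraries. Separation of this kind is frequent among all genes, as given for the Fos subunits, and the level of Jund is uncertain. A group difference in these shares was not tested. The Fos to Jun ratio of the summed TPM was 1.10 and 1.298 in the cKO libraries, against 1.69 and 1.22 in the Control libraries, so Fos transcripts exceeded Jun transcripts in every library and the groups overlapped.

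Atf3, a stress-induced bZIP protein that pairs with Jun proteins and represses as a homodimer, was at 275.1 and 248.7 TPM in the cKO libraries, against 232.1 and 229.7 TPM in the Control libraries. Both cKO libraries were above both Control libraries in TPM, a scale on which the share of all genes doing so was not counted. On log2(TPM + 1) the median log2 fold change of all genes fitted was 0.13. In TMM-scaled CPM the groups overlapped, at 240.4 and 316.5 in the cKO libraries, against 274.4 and 267.8 in the Control libraries, with cKO 1 now the lowest. The log2 fold change was 0.04 (SE 0.36, 95% interval -0.67 to 0.75, edgeR adjusted p = 1.00), -0.02 with DESeq2 size factors, and -0.24 without cKO 2.

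Maff, a small Maf protein that has no activation domain of its own and pairs with other bZIP proteins, was at 22.1 and 43.0 TPM in the cKO libraries, against 38.3 and 44.0 TPM in the Control libraries. The cKO 1 library stood alone below the other 3, which lay close together. The same held in CPM, at 18.6 and 54.0 in the cKO libraries, against 44.7 and 50.4 in the Control libraries. The log2 fold change was -0.39 (SE 0.33, 95% interval -1.04 to 0.26, edgeR adjusted p = 1.00). It was -1.43 without cKO 2 (adjusted p = 0.00266) and 0.19 without cKO 1, so its direction rests on cKO 1.

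How alike the genes were over the libraries was described by the root mean square difference of their log2 CPM, each centred on its own mean over the 4 libraries. Of the 36 pairs, Jun and Junb were closest, at 0.049, and their ratio in TPM was nearly constant, with Junb at 3.37 and 3.48 times Jun in the cKO libraries, against 3.70 and 3.47 times in the Control libraries. Both had the same order of libraries in CPM, from Control 2 down through cKO 1 and cKO 2 to Control 1. Fosl1 and Atf3 followed at 0.125, Fos and Atf3 at 0.140, and Fos and Fosl1 at 0.143. Jund and Maff were farthest apart, at 0.890. With 4 libraries such values describe these libraries only.

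**Figure D3:**
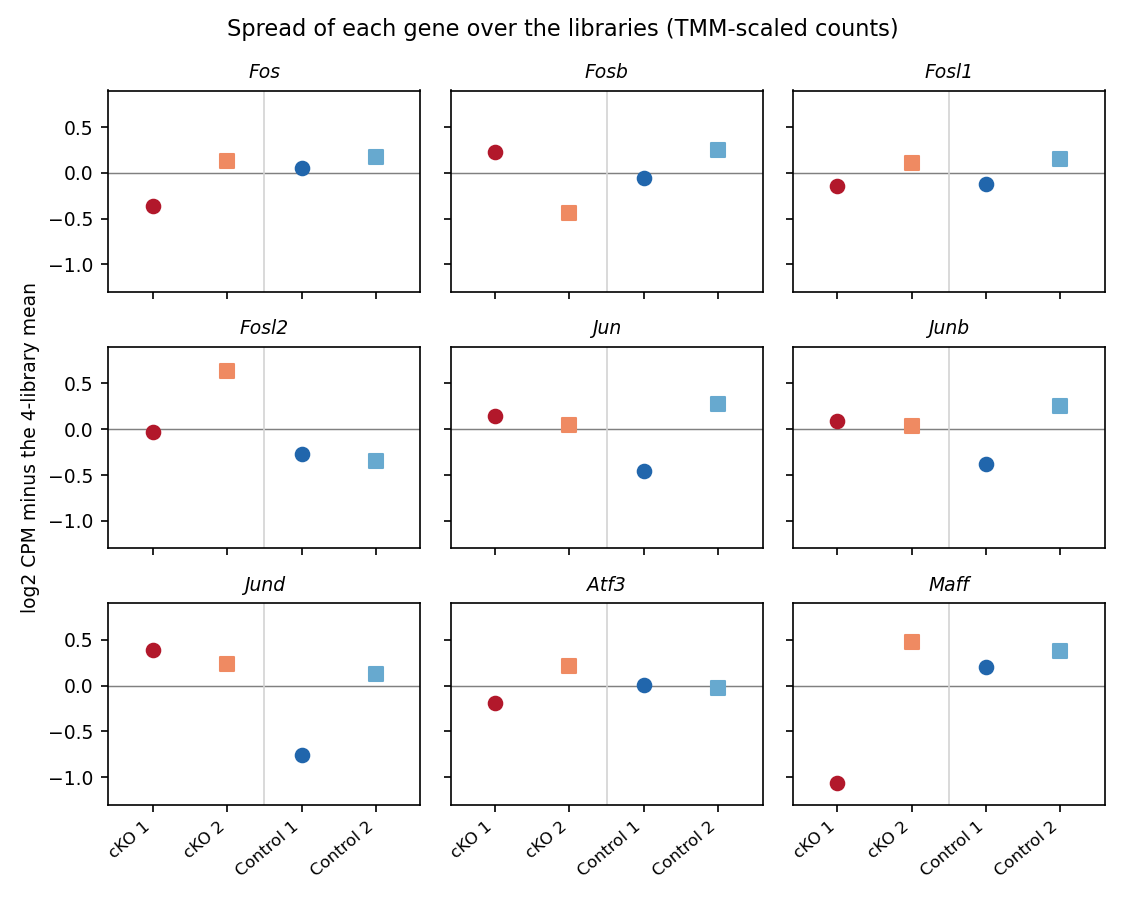
Deviation of each gene's log2 CPM (TMM-scaled) from its own mean over the 4 libraries, one panel per gene, cKO libraries left of Control libraries, with the points coloured by library. Jun, Junb and Jund share a low Control 1, Maff has a low cKO 1, and in Fosl2 and Jund both cKO points lie above both Control points.

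Outside the family, the genes most like Fos among 1031 protein-coding genes with a mean of at least 10 CPM and a range of at least 1 log2 unit were Bmt2, at 0.172, Eif5a, at 0.184, and Pim1, at 0.186. The genes most like Jun were Lzts2 and Chmp7, at 0.180 each, and Nhlrc1, at 0.204. For Atf3 they were Rnf217, Slk and Nfib, at 0.217, 0.221 and 0.226. Fos, Jun and Atf3 themselves ranged by 0.53, 0.73 and 0.40 log2 units, below the range asked of these genes, so the distances cannot be set against those within the family.

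Between the groups, 0 of the 9 genes passed the threshold in edgeR's quasi-likelihood test with an adjusted p under 0.05, against 0.551% of the 38143 genes tested (0.364% higher and 0.186% lower in cKO). Without adjustment, 0 of 9 had p under 0.05, against 4.83% of all genes tested, and DESeq2 and limma called 0 each. The fold changes were positive for Fosl2, Jund, Jun, Junb and Atf3 and negative for Maff, Fos, Fosb and Fosl1, with a median of 0.04 against 0.06 over all genes tested, and scaling alone turned the sign of Atf3 (DESeq2 size factors), Fosb and Fosl1 (library totals). The cKO libraries both exceeded either Control library in CPM for 2 of the 9 genes, Fosl2 and Jund, against 18.0% of all genes, and both lay below for 0, against 13.3%. The 95% intervals were wide. Those of Fosl2, Jund and Maff reached beyond 1 log2 unit, and the other 6 lay within 1 log2 unit of 0 on either side. A miss of the threshold does not show that the groups were equal. The labels do not say whether the libraries came from separate mice, so the p-values rest on the spread among these 4 samples alone, which may be technical.

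**Figure D4:**
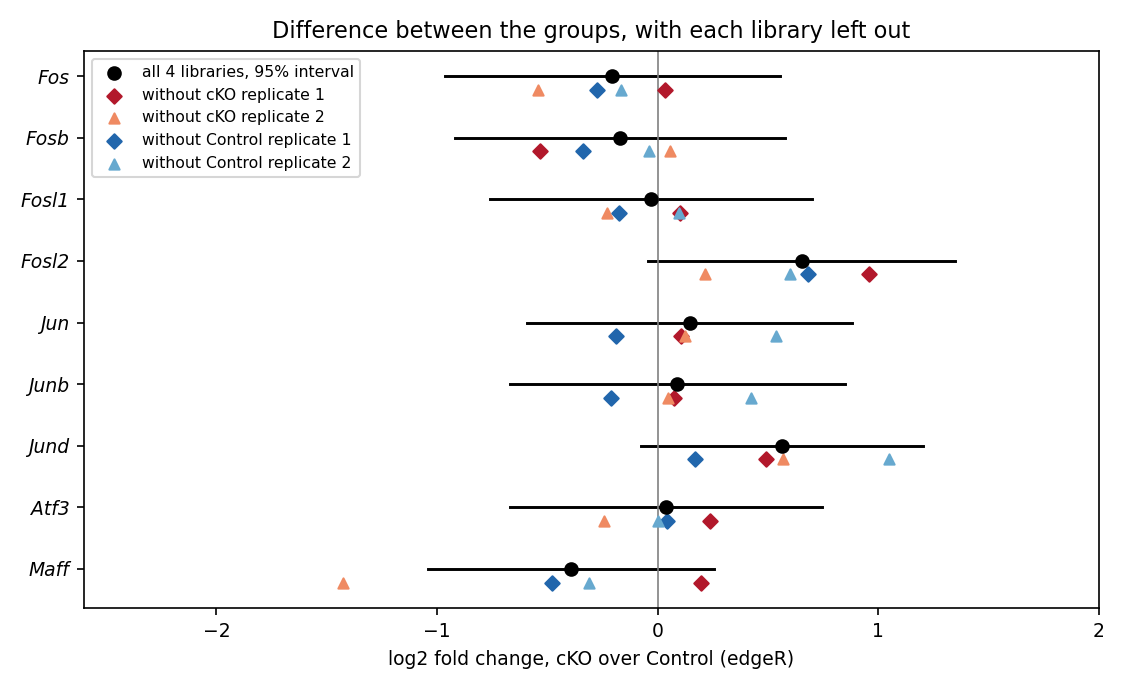
Log2 fold change of each AP-1 gene, cKO over Control, from edgeR, with its 95% interval (black, all 4 libraries) and the value with each library left out (coloured). All 9 intervals include 0, and leaving out a single cKO library moves Maff between -1.43 and 0.19 and Fosl2 between 0.21 and 0.96.

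The genes around AP-1 were mostly not called either, beside 0.551% called of all genes tested. An unadjusted edgeR p under 0.05 was more frequent in each list below than the 4.83% over all genes tested. It was found for 13.9% of the upstream factors, 7.41% of the other bZIP factors, 10.7% of the decay factors and 15.8% of the protein turnover genes. The lists were chosen with earlier results of these data known, and no test was run on these shares. Of 36 kinases and factors upstream of AP-1, 2 rose in cKO and 0 fell, with a median log2 fold change of 0.15. Mapk12, a p38 kinase of muscle, was at 5.48 and 5.58 CPM in the cKO libraries, against 1.71 and 1.64 CPM in the Control libraries. Its log2 fold change was 1.72 (SE 0.37, adjusted p = 0.00151). The call was lost without Control 1 (1.74) or Control 2 (1.67), where a single Control library remains. With every library kept, it was also not called in edgeR without a filter (1.70, adjusted p = 0.212) or by limma on log2(TPM + 1) (1.46, adjusted p = 0.0619). The filter of at least 5 CPM in 2 libraries removed it. Mapk14, the main p38 kinase, rose on account of 1 library, at 6.56 and 25.2 CPM in the cKO libraries, against 6.83 and 5.89 CPM in the Control libraries. Its log2 fold change was 1.32 (SE 0.33, adjusted p = 0.0159), and -0.03 without cKO 2. With every library kept, Mapk14 was not called by DESeq2 (1.31, adjusted p = 0.874) or by limma (0.90, adjusted p = 0.282).

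Of 27 other bZIP factors, 1 fell and 0 rose, with a median of -0.10. Nfe2l1, a factor that drives proteasome genes, was at 29.3 and 32.1 CPM in the cKO libraries, against 30.3 and 142.4 CPM in the Control libraries. Its log2 fold change was -1.49 (SE 0.35, adjusted p = 0.00708), and it was -0.000334 without Control 2, the one library that stood apart. With every library kept, Nfe2l1 was not called by DESeq2 (-1.55) or by limma (-0.74, adjusted p = 0.673). Of 30 known AP-1 target genes, edgeR, DESeq2 and limma called 0 in either direction, and 5 (16.7%) had an unadjusted p under 0.05, against 4.83% of all genes tested, with a median of 0.10. The 3 with the highest mean CPM, a scale not corrected for length, were Lmna, a nuclear lamin, with a log2 fold change of 0.08, Hmox1, haem oxygenase, with 1.04 (adjusted p = 0.521), and Cd44, a hyaluronan receptor, with -0.37. Hmox1 was at 1650.3 and 3659.5 CPM in the cKO libraries, against 1031 and 1553 CPM in the Control libraries, so the groups did not overlap but the difference did not pass in edgeR.

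Of 28 decay and stability factors of AU-rich mRNA, 1 rose and 0 fell, with a median of -0.06. Zc3h12a, an RNase that degrades inflammatory mRNAs, was at 25.7 and 12.3 CPM in the cKO libraries, against 6.88 and 8.83 CPM in the Control libraries. Its log2 fold change was 1.27 (SE 0.33, adjusted p = 0.0225), and it was 0.66 without cKO 1. With every library kept, it was not called by DESeq2 (1.17, adjusted p = 0.418) or by limma on log2(TPM + 1) (1.21, adjusted p = 0.345). With a single Control library left it was not called either, at 1.08 without Control 1 and 1.44 without Control 2. Of 19 genes for the ubiquitin and SUMO control of Fos and Jun proteins, 2 fell and 0 rose, with a median of -0.18. Both are SUMO modifiers, whose attachment is known to restrain Fos and Jun activity. Sumo2 was at 10.8 and 16.1 CPM in the cKO libraries, against 117.7 and 130.0 CPM in the Control libraries. Its log2 fold change was -3.20 (SE 0.37, adjusted p = 1.05e-14), called under every alternative run. Sumo3 was at 24.01 and 54.00 CPM in the cKO libraries, against 46.2 and 153.8 CPM in the Control libraries. The groups overlapped, and its log2 fold change of -1.36 (SE 0.35, adjusted p = 0.0227) was -0.25 without Control 2. With every library kept, Sumo3 was not called by DESeq2 (-1.38) or by limma (-0.98, adjusted p = 0.202).

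Of 48 other immediate early genes, 4 rose and 0 fell, with a median of 0.09. In edgeR 11 of the 48 (22.9%) had an unadjusted p under 0.05, against 4.83% of all genes tested. The 4 that rose were Cebpd (2.18, adjusted p = 1.28e-05), Rhob (1.48, adjusted p = 0.00386), Cebpb (1.42, adjusted p = 0.0058) and Dusp5 (1.22, adjusted p = 0.0363), given as log2 fold changes from edgeR. With every library kept, DESeq2 did not call Rhob, Cebpb or Dusp5 (adjusted p = 0.223, 0.391 and 0.474). Nor were these genes called by limma or with the other scalings, other filters or the replicate block. Cebpd was called by DESeq2 (adjusted p = 0.000174). It was not called by limma, with library totals only, or with the other filters. With a single Control library left, none of the 4 was called, although the fold changes stayed positive. Without Control 1 they were 1.73 for Cebpd, 1.13 for Rhob, 0.88 for Cebpb and 1.03 for Dusp5, and without Control 2 they were 2.76 for Cebpd, 1.89 for Rhob, 2.22 for Cebpb and 1.39 for Dusp5. Without cKO 1, Rhob was at 0.78 and Dusp5 at 0.64, and neither was called. Cebpd and Cebpb were not called with a single cKO library left, at 1.90 and 1.02 without cKO 1 and 2.35 and 1.66 without cKO 2. These 4 are known for inflammatory and stress signalling (Cebpd, Cebpb), cell adhesion (Rhob) and ERK inactivation (Dusp5). Whether the immediate early genes differed from the AP-1 genes in their response was not tested. The erythroid, macrophage and fibro-adipogenic marker sums moved with the groups here as well, and the endothelial sum did so in TPM only. The macrophage sum was mostly Lyz2 and Cd68 and the fibro-adipogenic sum mostly Dcn, and not every marker of these lists moved the same way. Macrophage markers were at 44.0 to 54.9 TPM in cKO and 30.1 to 32.5 TPM in Control libraries. The part of these cell types in the 4 calls was not tested.

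**Figure D5:**
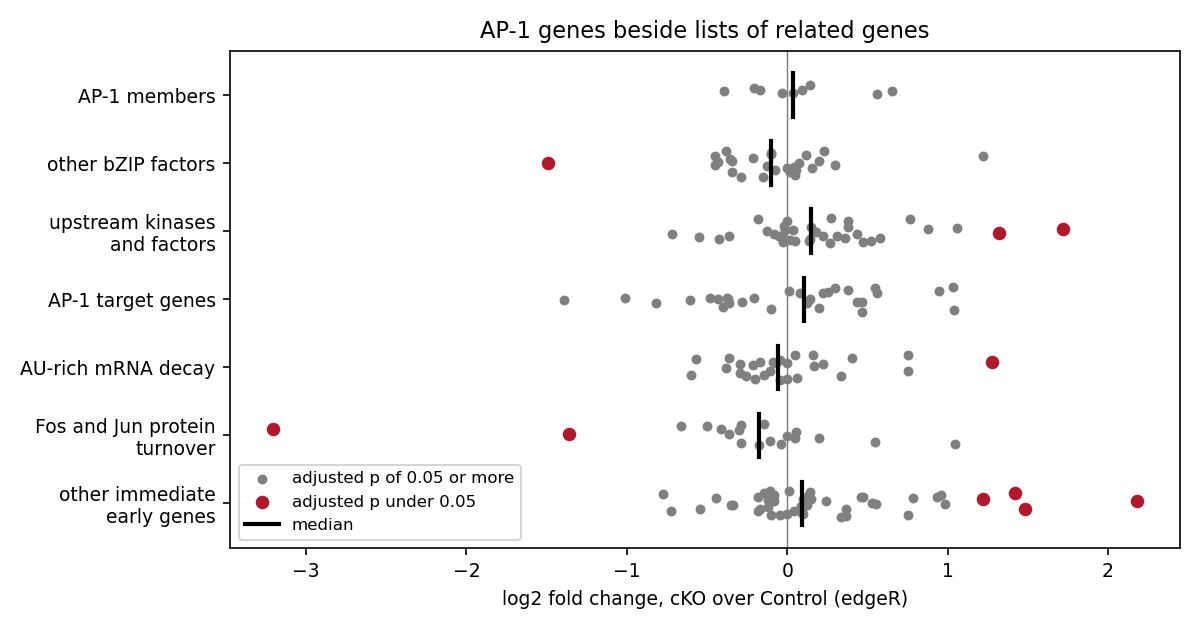
Log2 fold change, cKO over Control (edgeR), of the 9 AP-1 genes and of 6 lists of related genes, with each point 1 gene, called genes (adjusted p under 0.05) in red and the list median as a black bar. The AP-1 genes lie between -0.39 and 0.65 with none called, and the list medians lie between -0.18 and 0.15.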

How the data were processed

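RNA of 2 cKO and 2 Control libraries was measured. Per the labels' protocols, 10 ng of RNA per sample was made into cDNA by SMART-Seq, and MGI libraries were built. HISAT2 2.1.0, StringTie 1.3.6 and GRCm38 are listed, without their role, in the submitters' processing notes. Neither the strand setting nor the annotation release is given in the sources used here. The authors deposited estimated counts per gene, whole numbers as deposited, and TPM per gene. Symbols, coordinates and transcripts came from GENCODE M21, and promoters from RefSeq.

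The comparison used edgeR 4.0.16 on the counts, run in R 4.3.3 (TMM, filterByExpr with a minimum count of 10, robust quasi-likelihood test, Benjamini-Hochberg over all genes tested, threshold 0.05). CPM use TMM-scaled totals. The SE is the size of the log2 fold change over the square root of F. Alternatives were DESeq2 1.42.0, limma 3.58.1 on log2(TPM + 1), other scalings and filters, the replicate number as a block, and each library left out. Adjusted p values printed as 1.00 are 0.99998. The scripts were tested on simulated data.

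Members and lists were chosen with earlier results of these data known. Named genes are the 9 members, up to 4 called genes of each list or, where none was called, the 3 with the highest mean CPM, and the 3 genes most like Fos, Jun and Atf3. Dusp1, Btg2 and Zfp36 stand in more than 1 list. The libraries of a group differed beyond sampling noise (chi-square over degrees of freedom 83.5 in cKO and 49.6 in Control).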

Additional observations from a re-analysis of the deposited data

How the results depend on the processing

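The number of AP-1 genes called was 0 except with library totals only (1, Fosl2) and without a single library (0 to 2). Fos and Maff were called only without cKO 2 and Fosl2 only without cKO 1 and with library totals. The median log2 fold change of the 9 genes stayed between -0.19 and 0.18. Leaving out single libraries moved Fos between -0.54 and 0.032, Fosb between -0.53 and 0.054, Fosl1 between -0.23 and 0.10, Fosl2 between 0.21 and 0.96, Jun between -0.19 and 0.54, Junb between -0.21 and 0.42, Jund between 0.17 and 1.05, Atf3 between -0.24 and 0.24 and Maff between -1.43 and 0.19. Other settings turned Atf3 to -0.019 (DESeq2 size factors, and DESeq2), Fosb to 0.056 (library totals only) and 0.012 (at least 5 CPM in 2 libraries), and Fosl1 to 0.12 (library totals only), 0.082 (at least 5 CPM) and 0.14 (limma); Fosl2 was 0.76 with library totals only. The causes were not tested.

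Of all genes, 210 were called, against 282 with library totals only, 119 with DESeq2 size factors, 28 with no filter, 14 with at least 5 CPM in 2 libraries, 96 with DESeq2, 53 with limma, 96 with the replicate block, and 51 to 2267 without single libraries. The share of called genes that were higher in cKO was 66.2%, and 55.5% with DESeq2 size factors; without cKO 2 it was 11.1%. Fits without a library assume that the lone library of a group varies like the other group. The labels do not say what the replicate number marks, so it was not treated as pairing. Libraries with the same replicate number share a part of their library code across the 2 groups, and the meaning of that part is not given. The difference of replicate 1 from 2 in cKO correlated weakly and negatively with that in Control (r = -0.24 over 7840 genes). A crossed block, chosen after seeing the data, called 243 genes and 0 AP-1 genes.

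Called genes in the lists of bZIP factors, upstream factors, decay factors, protein turnover and immediate early genes numbered 1, 2, 1, 2 and 4. They were 0, 1, 0, 1 and 1 with DESeq2 size factors, DESeq2 and the replicate block alike, 0, 0, 0, 1 and 0 with no filter and with at least 5 CPM, 0, 0, 0, 1 and 1 with limma, and 0, 1, 0, 1 and 4 with library totals only, where 1 target gene was called. The immediate early genes called with library totals only and with limma were other genes, since Cebpd, Rhob, Cebpb and Dusp5 were not called there. Without single libraries they ranged over 0 to 6, 0 to 4, 0 to 10, 1 to 6 and 0 to 10, and target genes over 0 to 4.

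By CPM per kilobase, Jun ranked 4th and Fosb 5th; the other 7 ranks were as in TPM. With genes of at least 0.1 TPM as the background, the percentiles were 99.8 for Junb, 99.7 for Fos, 99.5 for Fosl1, 99.4 for Fosb, 99.2 for Jun, 98.9 for Atf3, 95.1 for Fosl2, 93.6 for Maff and 92.4 for Jund, since more low genes enter it.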
